A study of Mus musculus with 8 samples.

Results

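Probes annotated as DOWNSTREAM, read here as past the end of the gene they are named for, were examined in a chromatin immunoprecipitation (ChIP) of Flag-tagged HoxB4 from mouse blood progenitors. The promoter arrays carry an annotation class for each probe, and all probes of this class were taken, without regard to their signal. There were 10032 such probes among 474380, 4829 of them on array 1 and 5203 on array 2. Both arrays held other probe sets, so each probe was measured on 1 array, there is no replicate, and no difference below was tested. Of the other classes, PROMOTER probes (231808) lie upstream of a gene start and INSIDE probes (204700) within the gene. The sources used here do not define the class. Set against the gene's length in RefSeq (GRCm38.p6), 7808 of 9752 DOWNSTREAM probes (80.1%) lay as far from the start as the gene is long or farther, and 0.124% of INSIDE probes did.

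The cells came from mouse embryonic stem (ES) cells of the line B6N-22UTR, grown as embryoid bodies for 6 days. Precursors with the surface proteins c-Kit and CD41 were placed on OP9 stromal cells and infected with a retrovirus that overexpresses HoxB4 with a 3xFLAG tag. Magnetic sorting collected c-Kit+ progenitors on day 12 of the coculture. On each array the Flag-IP DNA was labelled with Cy5 and the input DNA of the same cells with Cy3, and both had been amplified with T7 RNA polymerase. The level of the tagged protein is that of a retroviral vector, not of the endogenous gene, and an immunoprecipitation from cells without the tag was not analysed here. The identity of the cells cannot be read from these arrays, which measure genomic DNA.

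HoxB4 is a homeodomain transcription factor that promotes self-renewal and expansion of blood stem and progenitor cells. Homeodomains contact short A and T rich sites whose core is often TAAT, and Hox proteins bind longer sites together with Pbx and Meis partners. In promoter arrays the probes past a gene's end come from genes shorter than the tiled stretch, such as histone genes and the intronless coding parts of odour receptors, or from stretches tiled for another transcript start. Histone genes are transcribed during DNA replication in dividing cells, whereas olfactory receptor genes serve the sensory neurons of the nose and are not part of the blood cell programme.

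The printed promoters of genes from both ends of the range of DOWNSTREAM ratios differ in sequence. RefSeq promoters (GRCm38.p6, 250 bases before to 50 bases after the start) are shown for the 3 histone genes among the 10 highest genes and for 3 of the 10 lowest genes. The array probes themselves have no sequence in the sources used here. The promoters lie at chr13:23698409-23698708 for H4c3, chr13:23761200-23761499 for H4c1, chr13:23571150-23571449 for H2bc8, chr2:36869318-36869617 for Olfr352, chr17:37314388-37314687 for Olfr102 and chr2:87628215-87628514 for Olfr1131. H4c3, H4c1 and Olfr102 are on the minus strand and the others on the plus strand. Capitals mark TAAT or its reverse complement ATTA.
H4c3: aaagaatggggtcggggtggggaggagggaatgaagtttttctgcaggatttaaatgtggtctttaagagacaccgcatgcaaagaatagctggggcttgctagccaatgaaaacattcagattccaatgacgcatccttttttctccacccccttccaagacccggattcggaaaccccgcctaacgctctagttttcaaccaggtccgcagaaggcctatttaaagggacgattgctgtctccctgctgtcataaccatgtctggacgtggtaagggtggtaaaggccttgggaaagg
H4c1: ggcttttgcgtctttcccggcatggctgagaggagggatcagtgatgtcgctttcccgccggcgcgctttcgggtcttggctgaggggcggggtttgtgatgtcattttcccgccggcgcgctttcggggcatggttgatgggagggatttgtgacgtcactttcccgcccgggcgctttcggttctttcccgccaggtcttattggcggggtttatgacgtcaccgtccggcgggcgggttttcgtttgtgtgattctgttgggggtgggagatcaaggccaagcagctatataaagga
H2bc8: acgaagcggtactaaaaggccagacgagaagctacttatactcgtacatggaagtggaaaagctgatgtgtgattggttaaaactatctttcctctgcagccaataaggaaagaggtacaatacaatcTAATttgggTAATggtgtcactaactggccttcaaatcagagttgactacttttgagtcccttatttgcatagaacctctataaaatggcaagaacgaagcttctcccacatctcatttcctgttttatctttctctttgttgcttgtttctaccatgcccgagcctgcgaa
Olfr352: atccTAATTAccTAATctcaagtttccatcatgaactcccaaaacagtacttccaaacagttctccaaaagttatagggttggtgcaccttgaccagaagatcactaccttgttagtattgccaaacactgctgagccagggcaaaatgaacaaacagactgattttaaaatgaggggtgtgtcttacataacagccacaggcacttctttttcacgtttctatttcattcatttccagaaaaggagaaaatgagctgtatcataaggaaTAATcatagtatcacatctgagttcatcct
Olfr102: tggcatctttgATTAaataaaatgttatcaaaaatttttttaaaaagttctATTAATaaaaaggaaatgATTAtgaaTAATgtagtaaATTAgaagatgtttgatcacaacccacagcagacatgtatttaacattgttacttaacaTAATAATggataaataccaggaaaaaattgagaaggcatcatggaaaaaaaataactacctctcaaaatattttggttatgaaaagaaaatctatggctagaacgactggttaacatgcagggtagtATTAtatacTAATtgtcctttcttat
Olfr1131: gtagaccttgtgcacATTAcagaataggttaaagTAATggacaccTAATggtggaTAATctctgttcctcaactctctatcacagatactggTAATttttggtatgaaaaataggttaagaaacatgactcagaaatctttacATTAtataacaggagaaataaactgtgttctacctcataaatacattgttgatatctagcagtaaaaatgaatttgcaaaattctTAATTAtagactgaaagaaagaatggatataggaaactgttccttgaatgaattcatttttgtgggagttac
The histone promoters held 49.7%, 59.3% and 41.0% G and C, in the order shown, and 0, 0 and 2 matches to the capitals' letters. The olfactory promoters held 38.3%, 26.3% and 31.3% G and C, with 4, 10 and 8 matches. A match is a description of the letters and not a binding site.

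A RefSeq promoter was found for 1549 of the 1925 genes with DOWNSTREAM probes. The median G and C content was 35.0% for 586 olfactory receptor genes of 698 and 54.7% for 963 other genes of 1227, against 52.7% for all 32851 RefSeq promoters. TAAT, on either strand, was in 94.5% of the olfactory promoters, 57.2% of those of the other genes and 58.0% of all promoters. TGATNNAT, a form of the joint Hox and Pbx site also searched on both strands, was in 23.5%, 9.97% and 8.85% of the same sets. The CCAAT box, searched as CCAAT or ATTGG, was in 76.3% of 38 histone promoters and 37.4% of all promoters. Over these 38 histone promoters the median G and C content was 46.5%, and TAAT was in 63.2%. The printed histone promoters thus do not stand for the set. The letters of the homeodomain core were thus found in the largest share of promoters for the olfactory receptor genes, whose DOWNSTREAM probes are described below. These promoters also had the lowest median G and C content of the sets. The share that base composition alone would give was not computed, so an excess of these letters cannot be read from the shares.

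The first comparison asked how the Flag-IP signal past gene ends stands beside that of other probes. Values are log2 of Flag-IP over input, centred on the median of each array, so that 0 is the typical probe and 1 is a 2-fold excess over it. DOWNSTREAM probes had the lowest median of all annotation classes. It was -0.52 on array 1 (95% interval -0.56 to -0.49, 4829 probes) and -0.50 on array 2 (-0.54 to -0.47, 5201 probes). INSIDE probes had medians of 0.13 and 0.14, PROMOTER probes -0.11 and -0.11, and promoters shared by divergent genes 0.08 and 0.12. The order of the classes was the same on both arrays, and 30.8% of DOWNSTREAM probes were above 0 against 57.2% of INSIDE probes. These intervals, from order statistics, cover counting error only. Neighbouring probes also share their ratio in part (Pearson's r of 0.66 over 3903 neighbour pairs of array 1 and 0.62 over 4199 of array 2), so the intervals are too narrow.

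High ratios were rarer among DOWNSTREAM probes than among all probes, and low ratios were more frequent. On array 1, 207 probes (4.29%, Wilson 95% interval 3.75% to 4.90%) had a log2 ratio of 1 or more, whereas 9.59% of all probes did. On array 2 there were 211 (4.06%, 3.55% to 4.63%) beside 8.03% of all probes. A ratio of -1 or less was found for 1634 probes of array 1 (33.8%, 32.5% to 35.2%) and 1664 of array 2 (32.0%, 30.7% to 33.3%), beside 15.5% and 15.4% of all probes. At 2 or more there were 17 probes on array 1 (0.352%, with 0.713% of all probes) and 18 on array 2 (0.346%, with 0.557% of all). At -2 or less there were 429 (8.88%, with 2.87% of all probes) and 413 (7.94%, with 2.88% of all). Of the 842 probes at -2 or less, the Flag-IP signal of 543 (64.5%) was not well above background. Of these, 443 had an input signal above it, so their ratios are bounds, and in the other 100 neither channel was well above background.

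**Figure D1:**
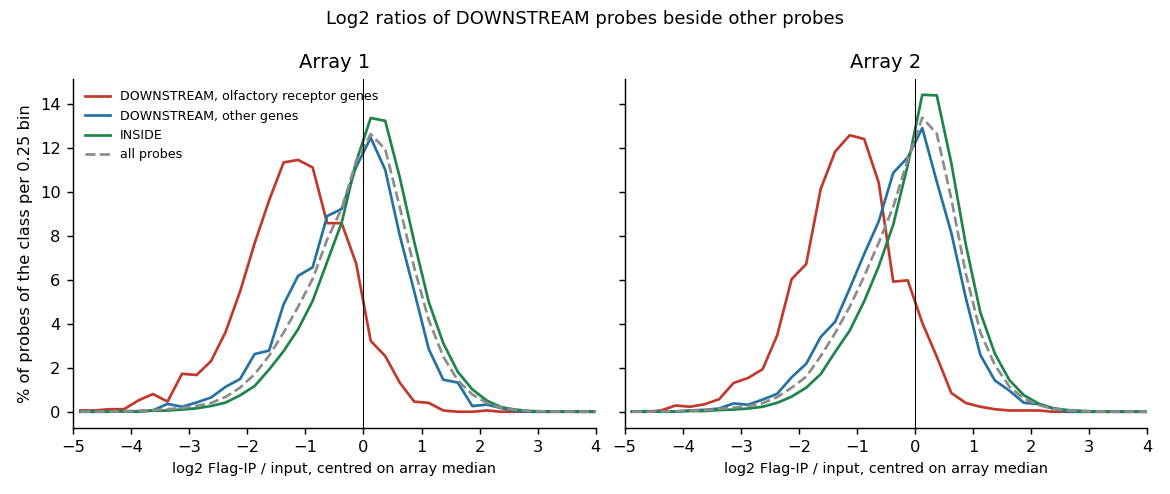
Share of probes (vertical axis, percent of each class per bin of 0.25) by centred log2 ratio of Flag-IP over input (horizontal axis), for array 1 and array 2. DOWNSTREAM probes of olfactory receptor genes (red) centre at -1.16 and -1.14, DOWNSTREAM probes of other genes (blue) at -0.15 and -0.17, and INSIDE probes (green) at 0.13 and 0.14. The dashed line is all probes.

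Olfactory receptor genes, which encode the odour receptors of the nose, made up 3496 of the 10030 probes without outlier marks. Their median was -1.16 on array 1 (1738 probes) and -1.14 on array 2 (1758 probes). Of them 18 (0.515%) reached 1, and 1992 (57.0%) were at -1 or less. DOWNSTREAM probes of the other genes had medians of -0.15 (-0.19 to -0.10, 3091 probes) and -0.17 (-0.21 to -0.13, 3443 probes). Without olfactory receptor genes the share at 1 or more was 6.41% and 5.87%, and the share at -1 or less 20.8% and 19.2%. Over both arrays the other genes' DOWNSTREAM median was -0.16, below the -0.07 of PROMOTER probes of genes other than olfactory receptors. Probes without an assigned class had -0.15 on array 1 and -0.25 on array 2. Low ratios in olfactory receptor genes were not limited to the DOWNSTREAM class. Their PROMOTER probes had medians of -0.98 and -1.01 (6760 probes on each array) and their INSIDE probes -0.27 (1225 probes) and -0.34 (1054 probes). With a normexp background correction the median of their DOWNSTREAM probes was -0.72, and with the trend over signal brightness removed -0.58.

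Distance from the gene start separated the DOWNSTREAM probes of genes other than olfactory receptors. A probe lay 2135 bp from its gene's start in the median, 5% lay within 1016 bp and 5% beyond 41113 bp. The 6570 probes within 2500 bp had a median of -0.81, and the 3460 beyond 2500 bp one of -0.01, close to the centre of all probes. Olfactory receptor genes supplied 3448 of the former. Leaving them out gave -0.37 for the 3122 near probes and 0.00 for the 3412 far ones. Olfactory receptor genes had -1.15 near the start and -1.05 over their 48 far probes. The low ratios past gene ends thus lay mostly within 2500 bp of the start. Beyond that, 7.25% of the probes reached 1 and 14.9% were at -1 or less, near the 8.81% and 15.4% of all probes of both arrays.

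At like distance from the start, DOWNSTREAM probes were lower than INSIDE probes. Over the 7 distance bins with 100 or more probes of both classes, the median difference of DOWNSTREAM minus INSIDE was -0.64 on array 1 and -0.55 on array 2. From 1000 to 1500 bp the DOWNSTREAM median was -1.03 on array 1 and -0.99 on array 2, and the INSIDE median 0.07 and 0.07. Without olfactory receptor genes the DOWNSTREAM medians in that bin were -0.64 (301 probes) and -0.47 (332 probes). Past 10000 bp the classes differed by -0.01 and 0.13. Without olfactory receptor genes the median difference over the bins was -0.13 on array 1 and -0.18 on array 2.

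**Figure D2:**
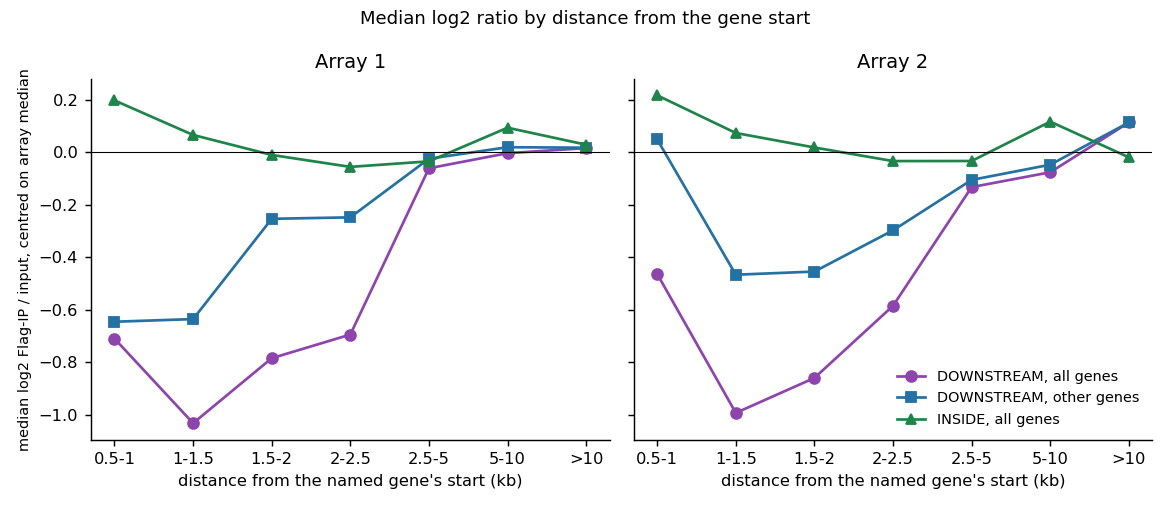
Median centred log2 ratio (vertical axis) by distance from the start of the named gene in kb (horizontal axis) for DOWNSTREAM probes of all genes (purple), DOWNSTREAM probes without olfactory receptor genes (blue) and INSIDE probes (green). The DOWNSTREAM medians are lowest at 1 to 1.5 kb for all genes (-1.03 and -0.99) and lie near the INSIDE medians beyond 2.5 kb.

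The same order was seen within genes, where distance from the start was not matched. Within a gene INSIDE probes tend to lie nearer the start. INSIDE medians of all genes fell from 0.39 and 0.37 within 500 bp to -0.06 and -0.03 at 2000 to 2500 bp (array 1 and array 2). Of 642 genes with 3 or more measured probes in each of the 3 classes, 513 (79.9%) had a lower median past the gene's end than inside it, by 0.51 in the median. Among the 404 genes of these that are not olfactory receptors the count was 298 (73.8%), with a median difference of -0.40. Against the PROMOTER probes within 2500 bp of the same genes the balance was closer, with 366 of 642 (57.0%) lower past the end and a median difference of -0.10. The median difference between the flanks on both sides was thus smaller than that between the downstream flank and the gene. The part of distance from the start in these differences was not tested. Gene medians here and below use the probes that were well above background in both channels (9070 of 10030), which leaves out many of the lowest ratios.

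Probe length, which in such designs is shorter where G and C content is higher, moved with these values. The probes are 44 to 60 bases long, and 61.8% of DOWNSTREAM probes had the full 60 bases against 35.0% of INSIDE probes and 41.4% of all probes. For olfactory receptor genes the share was 87.8%. DOWNSTREAM medians on array 1 were 0.36 for probes of 44 or 45 bases, 0.07 for 51 to 55 bases and -1.01 for 60 bases. On array 2 they were 0.35, 0.06 and -0.93. INSIDE probes showed the same order over a smaller range, from 0.43 to -0.44 on array 1 and from 0.41 to -0.43 on array 2. Among probes of like length 1000 to 2500 bp from the start the DOWNSTREAM medians were lower too. Among 60-base probes 1000 to 2500 bp from the start of genes other than olfactory receptors, DOWNSTREAM medians were -0.86 (730 probes) and -0.73 (900 probes), and INSIDE medians -0.45 and -0.44. Among probes of 44 to 55 bases at the same distance they were 0.19 and 0.10, with INSIDE at 0.34 and 0.34. Farther out the sign varied for the 60-base probes of these genes. In the bins 2500 to 5000 bp, 5000 to 10000 bp and beyond, DOWNSTREAM minus INSIDE was -0.07, 0.16 and 0.08 on array 1. On array 2 it was 0.06, -0.24 and 0.33.

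The promoter's G and C content followed the same line. It could be set against the DOWNSTREAM median of 997 genes with 3 or more measured probes. The median over genes was -1.14 for 233 genes with promoters of at most 35% G and C, -0.66 for 113 genes between 40% and 45%, and 0.05 for 187 genes above 60%. Across these genes, which are not independent replicates and share 2 arrays, Spearman's rho was 0.64. It was 0.38 within the 422 olfactory receptor genes and 0.40 within the 575 other genes. At like composition olfactory receptor genes and other genes lay nearer to each other than over all genes, where their medians were -1.01 and -0.12. With at most 35% G and C, 65.0% of 200 olfactory genes and 51.5% of 33 other genes had a median of -1 or less. Between 35% and 40% the medians were -0.96 (126 olfactory genes) and -0.94 (50 other genes). Between 45% and 50% they were -0.37 (26) and -0.19 (76). Up to 40% G and C the other genes included many vomeronasal and taste receptors, whose list had a DOWNSTREAM probe median of -1.07. They are thus not a sample of genes at large. The part of base composition in the ratios was not tested. The promoter is not the sequence that the probes measure.

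**Figure D3:**
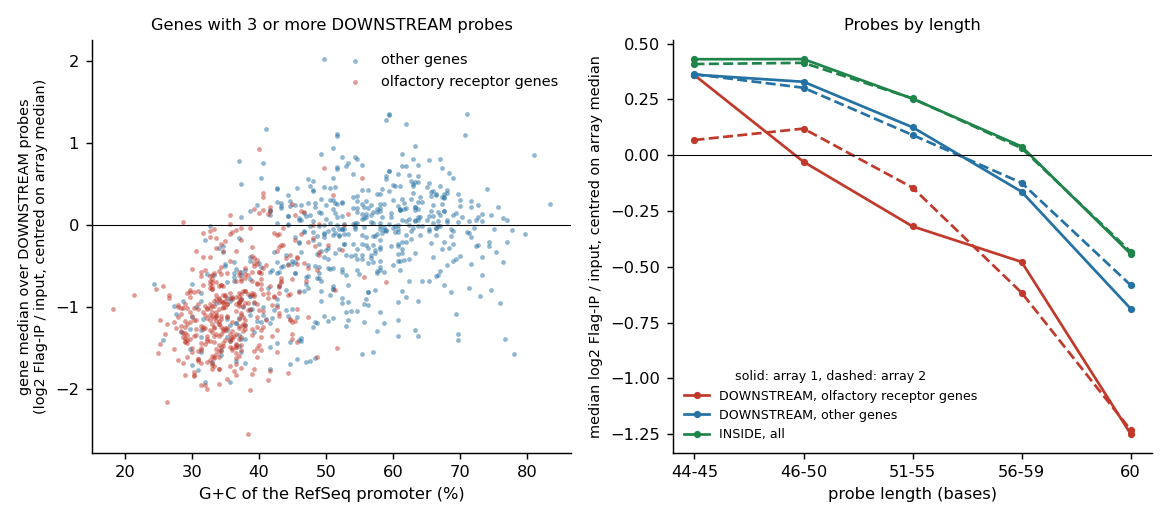
Left, median centred log2 ratio over the DOWNSTREAM probes of a gene (vertical axis) against the G and C content of its RefSeq promoter in percent (horizontal axis), 1 point per gene for 422 olfactory receptor genes (red) and 575 other genes (blue). Right, median centred log2 ratio by probe length in bases, solid for array 1 and dashed for array 2; DOWNSTREAM probes of 60 bases reach -1.25 and -1.23 in olfactory receptor genes and -0.69 and -0.58 in other genes, INSIDE probes -0.44 and -0.43.

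Replication-dependent histone genes, which package newly made DNA, stood apart from the receptor families. Their 386 DOWNSTREAM probes (42 genes) had a median of 0.01, with 45 (11.7%) at 1 or more and 50 (13.0%) at -1 or less, beside 8.81% and 15.4% of all probes. With the brightness trend removed the list's median was -0.05. The ratio was high close to the gene start and lower further out. The median was 1.02 for 16 probes within 500 bp of the start, 0.69 for 70 probes from 500 to 1000 bp, 0.08 for 70 probes from 1000 to 1500 bp, and -0.41 for 54 probes from 2000 to 2500 bp. Of all 18 DOWNSTREAM probes within 500 bp of a start, 16 belonged to histone genes, and all 16 of these were above 0. The other two were at Sprr4 (-0.18), a cornified envelope gene of skin, and Anp32-ps (-0.67). INSIDE probes of all genes at that distance had medians of 0.39 and 0.37.

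Among the core histones, the 11 H4 genes with 3 or more measured probes had a median of 0.44, and 7 were above 0. The 13 H2B genes had a median of 0.18 with 10 above 0, the 6 H3 genes 0.10 with 5 above 0, and the 3 H2A genes -0.48 with 0 above 0. The 5 genes of the linker histone H1 had a median of -0.07. The types were not compared at like distance from the start, with which the ratios fell. H2ac6, 1 of the 3 H2A genes, was measured at 2553 to 5136 bp, and H4c3 at 320 to 610 bp. Histone genes of 1 type have near-identical coding parts, and cross-hybridisation between copies was not tested. The probes described were taken as past those parts from their class, and their positions were not checked against the coding ends.

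H4c3 had the highest gene median of all, 2.03. Its 3 probes, 320, 434 and 610 bp from the start, had log2 ratios of 2.38, 1.96 and 2.03, so that all were close to 2 or above. Its 2 PROMOTER probes within 500 bp of the start had a median of 1.04. H4c1 had a median of 1.36 over 10 probes. From 326 to 953 bp its ratios were 1.05, 1.56, 2.50, 1.72 and 1.69, and from 1089 to 1741 bp 1.45, 0.42, 1.26, 1.16 and 0.31. The peak of this gene lay at 588 bp, and the nearest other annotated starts, those of H3c1 and H4c2, were more than 1500 bp from every one of the probes. H2bc8 had 4 ratios of 1.51, 1.63, 0.85 and 0.73 between 674 and 1305 bp. At the other end, H2ac6 had a median of -1.49 over 9 probes, all below 0 (-2.27 to -0.57), at 2553 to 5136 bp. H3c6 had a median of -1.11 over 4 probes (-1.75 to -0.73), although 3 probes within 500 bp of its start had a median of 1.91.

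**Figure D4:**
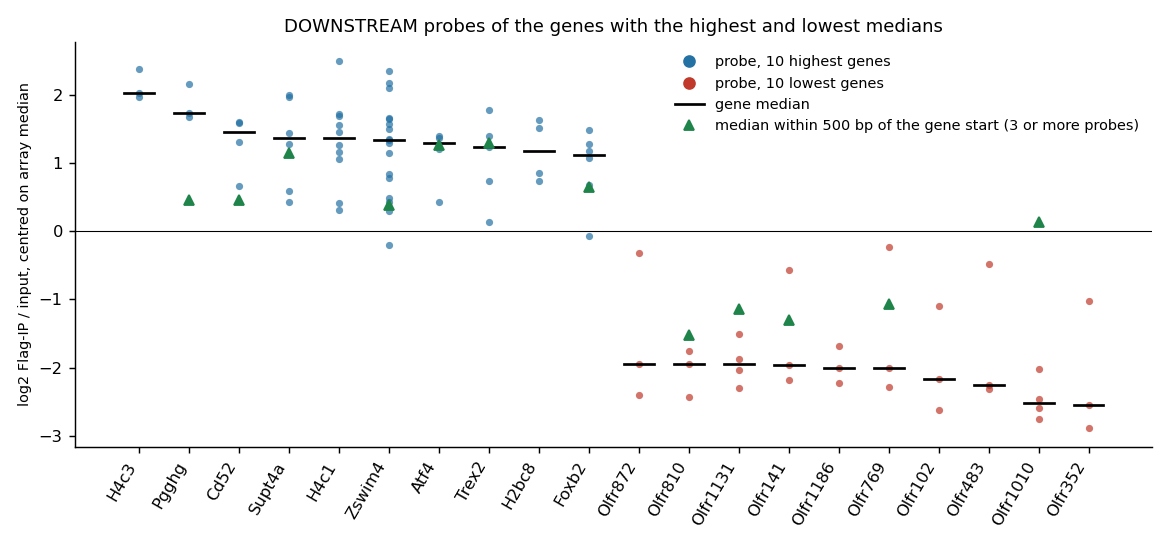
Centred log2 ratio (vertical axis) of each DOWNSTREAM probe well above background (points) for the 10 genes with the highest medians (blue) and the 10 with the lowest (red), with the gene median as a black bar. Green triangles are the median of other probes within 500 bp of the same gene's start where there were 3 or more; the highest gene is H4c3 (2.03) and the lowest Olfr352 (-2.55).

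The other genes of the highest 10 were of varied function. Pgghg, a glycosidase that acts on collagen sugars, had ratios of 1.67, 2.16 and 1.74 at 6348 to 6676 bp, where the probes also lie 1983 to 2311 bp past the start of Ifitm5. Cd52, a small surface glycoprotein of lymphocytes and other white cells, had 0.66, 1.31, 1.60 and 1.58 at 1697 to 2227 bp, with 0.86 for its 9 INSIDE probes. Atf4, a transcription factor of the amino acid and stress response, had 0.43, 1.36, 1.39 and 1.21 at 2375 to 2816 bp. The ratio of Atf4 was similar at the gene itself, with a median of 1.27 for 6 probes within 500 bp of the start, and normexp lowered its DOWNSTREAM median from 1.29 to 0.68. Trex2, an exonuclease, had 1.78, 1.40, 0.14, 1.23 and 0.74 (median 1.23, with normexp 0.79), and 1.29 for 6 probes at the start. Foxb2, a forkhead transcription factor of the embryo, had a median of 1.12 over 6 probes (-0.08 to 1.49).

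Supt4a, a subunit of a transcription elongation factor, had a median of 1.36 over 6 probes (0.43 to 1.99). They lay 14111 to 15835 bp past its start, and 5 of them are also annotated to Supt4b, a close copy, so they cannot be ascribed to Supt4a alone. Zswim4, a zinc finger gene, had a median of 1.34 over 17 measured probes (-0.21 to 2.34), 26347 to 33526 bp from its start. Near its start the ratio was lower, at 0.39 over 7 probes. These tiles surround another annotated transcript start, and the probes from 1172 bp after to 792 bp before that start had ratios of 2.10, 2.34, 0.85, 1.35, 0.78, 1.29, 1.34 and 1.15, all above 0. High ratios were not limited to that start, since those at -4423, -4586, -4792 and -5298 bp from it had 1.57, 1.49, 1.64 and 2.17, and those at -3854, -4315 and -5101 bp 0.49, 0.42 and 0.30.

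The 10 lowest genes were all olfactory receptors. Olfr352 had ratios of -1.03, -2.55 and -2.89 at 1013 to 2228 bp. Olfr1010 had -2.02, -2.45, -2.58 and -2.76 at 985 to 1568 bp, whereas 6 probes within 500 bp of its start had a median of 0.14. The remaining 8 (Olfr483, Olfr102, Olfr769, Olfr1186, Olfr141, Olfr1131, Olfr810 and Olfr872) had medians from -2.25 to -1.94. In 4 of these, Olfr483, Olfr769, Olfr141 and Olfr872, 1 probe stood apart between -0.57 and -0.24 while the others were at -1.94 or less. The 3 probes of Olfr102 are also annotated to Olfr100 at the same distances, so they cannot be ascribed to Olfr102 alone. Of the 100 lowest genes 75 were olfactory receptors, and of the 100 highest 3 were. Over all 1239 genes with 3 or more measured probes, 15 (1.21%) had a median of 1 or more and 371 (29.9%) of -1 or less, 268 of the latter olfactory. Among medians of 15424 genes over INSIDE probes the shares were 2.48% and 2.81%, and among those of 13371 genes over PROMOTER probes 1.05% and 6.14%. With normexp the medians of the 10 lowest genes were between -1.13 and -0.80, and with the brightness trend removed between -1.77 and -1.02. Olfactory receptor genes with a median above 0 numbered 23 of 501. The highest were Olfr398, with a median of 0.93 over 3 probes that ranged from -1.54 to 1.75 (with normexp -0.14), and Olfr1513, with 0.70 over 4 probes (-0.27 to 1.07).

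The lists of other sensory receptors and of keratin-associated proteins had medians near that of the olfactory receptors. Vomeronasal and taste receptor genes (113 genes, 534 probes) had a median of -1.07, with 2 probes (0.375%) at 1 or more and 293 (54.9%) at -1 or less. Keratin-associated proteins of hair (21 genes, 104 probes) had -1.05, with 0 probes at 1 or more and 55 (52.9%) at -1 or less. The pheromone receptor genes Vmn1r226 (median -1.92, 4 probes) and Vmn1r233 (-1.91, 7 probes) were lowest of the former, and Krtap14 (-1.70, 6 probes) of the latter. Tas2r135, a bitter taste receptor, was highest at 0.29 over 11 probes (-0.36 to 1.02), or -0.04 with the brightness trend removed. Vmn1r47 was next at 0.24 over 4 probes (with normexp -0.12). Of the hair proteins, Krtap4-16 had -1.68 over 3 probes, Krtap16-3 -0.33 over 4 and Krtap12-1 -0.11 over 4. Probes of 60 bases made up 86.1% and 70.2% of these families.

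Among genes used by all cells, those for cytosolic ribosomes and oxidative phosphorylation had medians close to the array median. Cytosolic ribosomal protein genes (30 genes, 141 probes) had a median of 0.14, with 13 probes (9.22%) at 1 or more and 12 (8.51%) at -1 or less, beside 8.81% and 15.4% of all probes. With the brightness trend removed the median was 0.00. Rpl15 (0.59, 6 probes) and Rps12 (0.51, 3 probes) were highest, and Rpl37a (-0.89, 3 probes) and Rpl36al (-0.77, 6 probes) lowest. INSIDE probes of this family (874 probes) had a median of 0.61. They come from all genes of the list, with or without DOWNSTREAM probes, so the 2 medians do not compare the same genes. Oxidative phosphorylation genes (12 genes, 41 probes) had a median of 0.15, from Ndufa1 (-1.35, 4 probes) and Ndufb11 (-0.97, 3 probes) to Cox8c (0.49, 3 probes, with normexp -0.03) and Cox6a1 (0.80, 4 probes). Mitochondrial ribosomal protein genes (11 genes, 86 probes) had -0.37, from Mrpl51 (-1.29, 6 probes) and Mrpl39 (-0.63, 33 probes) to Mrps12 (0.42, 3 probes) and Mrpl36 (0.46, 7 probes). Numbered zinc finger genes (7 genes, 50 probes) had -0.61, with Zfp60 at -0.82 (17 probes), Zfp830 at -0.69 (5 probes), Zfp449 at -0.30 (11 probes, 0.23 with the brightness trend removed) and Zscan26 at -0.23 (9 probes). Proteasome genes had 4 probes with a median of -0.34. The genes on none of the lists (925 genes, 4965 probes) had a median of -0.08, with 6.28% at 1 or more and 16.5% at -1 or less.

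**Figure D5:**
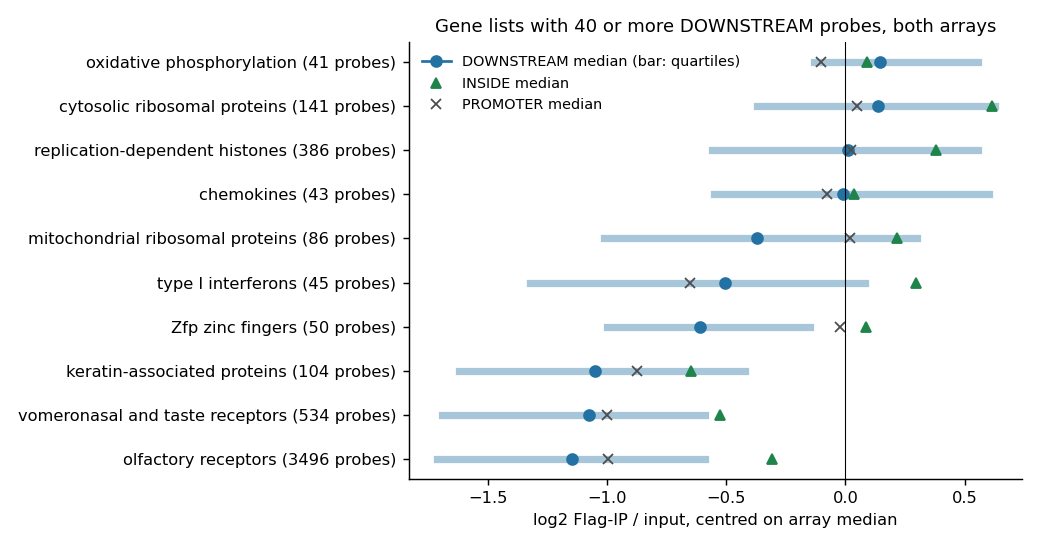
Median centred log2 ratio of DOWNSTREAM probes (blue points, bars from the first to the last quartile), INSIDE probes (green triangles) and PROMOTER probes (crosses) for the gene lists with 40 or more DOWNSTREAM probes, both arrays together. Olfactory receptors, vomeronasal and taste receptors and keratin-associated proteins lie at -1.15, -1.07 and -1.05, and oxidative phosphorylation genes at 0.15. INSIDE and PROMOTER medians are over all genes of a list, with or without DOWNSTREAM probes.

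Blood and regulatory genes had few DOWNSTREAM probes, and their values are those of single loci. The lists of blood transcription factors, microRNA genes and small RNA genes had 0 probes each. Platelet genes (4 genes, 19 probes) had a median of 0.01 over 15 probes of array 1 and 1.09 over 4 probes of array 2, all of Gp1ba. Over both arrays it was 0.67, and 0.18 with the brightness trend removed. Gp1ba, part of the von Willebrand factor receptor, had a median of 1.09 over 4 probes (0.92 to 1.37) and 1.15 over 6 probes at its start. Pf4, a platelet chemokine, had 0.21 over 10 probes (-1.48 to 0.76) although 6 probes at its start had 1.73. Gp9, a partner of Gp1ba, had -0.10 over 3 probes (-0.16 to 1.22), and 0.70 with the brightness trend removed. Globin genes (3 genes, 13 probes) had a median of 0.17, or 0.00 with the brightness trend removed, with Hbb-b2, an adult beta-globin, at 0.92 over 4 probes (0.09 to 1.07), Hbq1a at 0.15 over 6 and the embryonic Hbb-bh1 at 0.11 over 3. With the brightness trend removed the latter 2 were at -0.23 and -0.02. Neutrophil granule genes had 8 probes with a median of 0.28, and S100a8, which is also an S100 gene, had 0.24 over 5 probes. Mast cell genes had 1 probe, at -0.92.

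The lists of transcription regulators other than the numbered zinc finger genes held few probes each, and their medians lay between -0.13 and 0.46. Id1, an inhibitor of basic helix-loop-helix factors, had a median of 1.09 over 7 probes (-0.18 to 1.71) and 0.85 over 4 probes at its start. Id3 had 0.31 over 3 probes and Hes6 -0.21 over 5, in a list of 18 probes with a median of 0.20. Cebpe, needed for late granulocyte development, had 1.00 over 3 probes (0.80 to 1.88), while Sox18 had 0.06 over 3 probes and Sox3 -0.30 over 8. That list of 17 probes had a median of -0.13, and 0.25 with the brightness trend removed. Hox genes had 15 probes in 6 genes with a median of 0.46; Hoxa13 had 0.86 over 4 probes (0.38 to 1.09) and Hoxc12 0.58 over 5 (0.41 to 1.75), both above the level at their own starts (0.20 and 0.19). Immediate early genes (17 probes, median 0.24) ran from Jund (-0.08, 3 probes) over Junb (0.11, 5 probes) and Ier5 (0.57, 3 probes) to Gadd45g (0.61, 4 probes). Klf factors had 1 probe, at 0.27. S100a6, a calcium-binding protein, had 0.87 over 7 probes (0.42 to 1.52) in a list of 17 probes with a median of 0.36. The signs of Jund, Ier5, Sox3 and Sox18 turned with normexp or with the brightness trend removed.

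The probes beyond 2500 bp mostly lay near another transcript start. Of the 3460, 3245 had a further annotated start, RefSeq or other, within 6000 bp. Over both arrays together, though on neither array alone, their ratio was highest within 500 bp of that start on both sides. The median was -0.12 (833 probes) at -6000 to -4001 bp, upstream of that start, 0.26 (183 probes, 95% interval 0.09 to 0.42) in the 500 bp upstream, 0.23 (186 probes, 0.11 to 0.32) in the first 500 bp downstream, -0.01 (169 probes, -0.19 to 0.15) between 500 and 1000 bp downstream, 0.07 (165 probes) between 1000 and 1500 bp and 0.01 (171 probes) between 1500 and 2000 bp. Probes annotated to their own start in genes other than olfactory receptors had medians of -0.21, 0.28, 0.39, 0.22, 0.07 and 0.00 at the same distances. Over both arrays the reference value lay inside the interval in the 500 bp upstream and above it in both bins of the first 1000 bp downstream. In the farthest upstream bin it lay below the interval (-0.17 to -0.04). Array 1 alone gave the same positions, whereas on array 2 alone the reference value lay inside the interval in all of these bins. On array 1 the DOWNSTREAM median in the first 500 bp downstream was 0.14, below the 0.17 at 2500 to 5999 bp. On array 2 that in the 500 bp upstream was 0.15, below the 0.23 at 1000 to 1499 bp downstream. The intervals cover counting error only. Of the DOWNSTREAM probes in the 500 bp upstream, 15.3% reached 1, beside 8.81% of all probes of both arrays. The share among the reference probes at that distance was not computed.

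The highest windows of 3 neighbouring DOWNSTREAM probes all lay in such stretches beyond 2500 bp. Of 6325 windows, 199 (3.15%) had a median of 1 or more and 13 (0.206%) of 2 or more, beside 6.62% and 0.255% of 410722 windows over probes of any class. A median of -1 or less was found in 1892 (29.9%) and of -2 or less in 303 (4.79%), beside 11.4% and 1.30% of windows of any class. The highest window, named for Pus3, a tRNA-modifying enzyme, had a median of 2.44 (1.76 to 2.46) on chromosome 9, its middle probe 63 bp upstream of a further annotated start. The window named for St6galnac2, a sialyltransferase, had 2.06 (0.89 to 2.24) on chromosome 11, 98 bp past another start by its middle probe. Those named for Zswim4 (2.10), Aak1, a kinase of endocytosis (2.05), and Ccdc92b (2.05) lay 1172 bp after, 2509 bp before and 1471 bp after another start. All probes of these 5 windows were well above background. With normexp the medians of the Aak1 and Ccdc92b windows were 0.99 and 1.26. The 5 lowest windows, in Olfr183, Olfr1158, Olfr1284, Olfr1186 and Olfr655, had medians from -3.93 to -3.23. In each of them 2 or 3 of the 3 probes had a Flag-IP signal not well above background, and in Olfr655 1 input signal was not either. Counting such probes at the lowest signal that was well above background, the median ratio of the first 4 was at least 4.21, 3.71, 4.03 and 7.09-fold lower than the typical ratio, in the same order. No fold is given for Olfr655.

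Vsig4 and Rassf7 had the most DOWNSTREAM probes. Vsig4, a complement receptor of tissue macrophages, had 42 tiles 48178 to 55977 bp from its start, of which 40 were measured, with a median of 0.36 (-1.08 to 1.68) against -0.32 for 4 probes at the start itself. Rassf7, a Ras-association domain gene, had 39 with a median of 0.37 (-1.49 to 1.54), 2925 to 10564 bp from its start, where 4 probes had 1.21. Both stretches held ratios on both sides of 0.

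Signal strength moved with the ratios as well. The median input signal of DOWNSTREAM probes was 629 units against 805 for INSIDE probes, and that of olfactory receptor genes 533. In the dimmest decile of input signal the DOWNSTREAM median was -1.08 on array 1 and -1.16 on array 2, and in the brightest decile 0.22 and 0.16. At like input signal DOWNSTREAM probes were lower than INSIDE probes in 10 of 10 deciles on both arrays, by -0.55 and -0.52 in the median. Without olfactory receptor genes they were lower in 10 of 10 deciles too, by -0.21 and -0.22. With another background correction (normexp) the share at -1 or less was 0.0621% on array 1 and 8.84% on array 2, so the share of low ratios moved with the background correction, while the DOWNSTREAM medians stayed below 0 at -0.45 and -0.39.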

How the data were processed

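Flag-IP and input DNA were measured on 2 Agilent promoter arrays. The authors deposited scanner output with intensities per spot. Per the file headers, Agilent Feature Extraction 10.1.1.1 took off the local background, detrended over the slide and applied a linear factor per dye. The deposited log10 ratio column and value table served as alternatives. The deposited table equalled that column for 99.98% and 99.97% of probes (within 1e-05) and is not centred, with medians of 0.0181 and 0.0207. No header or label used here names the genome build of the probe positions.

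Log2 of processed red over green was centred on each array's median (0.06 and 0.07 before), without loess or quantile steps. Control spots and 19 and 38 spots with outlier marks were left out, 2 of them DOWNSTREAM. On each array 95.3% of probes passed Agilent's mark for a signal well above background in both dyes, and 0 spots were saturated. Of 1925 gene symbols, 1819 were matched to RefSeq (GRCm38.p6) through an accession, 44 through the symbol itself and 30 through a synonym; 32 kept the array's name. The expression arrays were not used here.

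Named genes needed 3 or more DOWNSTREAM probes well above background. They were the 10 highest and 10 lowest medians, the 5 highest and lowest windows (3 probes, starts within 1000 bp), the 2 genes with most probes, and the 2 highest and lowest of each gene list, or all of a list with fewer than 5 such genes. Sprr4 and Anp32-ps were named after their values were seen. The members and all 25 gene lists were chosen with earlier results of these data known, and the split at 2500 bp, the motifs, the printed promoters, the distance profile of histones, the check against RefSeq gene lengths and the shares over other windows and genes were chosen after seeing the data. Medians, windows and Wilson intervals were tested on simulated data. Tools were R 4.3.3, limma 3.58.1 (normexp with an offset of 50), pandas 2.3.3, numpy 2.4.6 and scipy 1.17.1. Depth is not defined for arrays, and having 1 array per probe limits the precision.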

Additional observations from a re-analysis of the deposited data

How the results depend on the processing

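The DOWNSTREAM medians and their differences from INSIDE probes stayed below 0 under every alternative run. Under the 3 alternatives run for single genes, the medians of the 10 highest genes stayed above 0 and those of the 10 lowest below 0. As these genes were chosen as extremes of values from the same spots, an unchanged sign says little about the processing. Keeping outlier marks, the log10 ratio column, the deposited table and deciles of input signal moved nothing beyond counting error. Values below are array 1 then array 2. Medians were -0.24 and -0.25 with the brightness trend removed, -0.45 and -0.39 with normexp, -0.41 and -0.42 for probes well above background, and -0.65 and -0.64 centred on INSIDE probes. They were -0.70 and -0.71 where no RefSeq start of another gene was annotated, -0.59 and -0.58 with no other start within 1000 bp, and -0.15 and -0.17 without olfactory receptor genes, an alternative chosen after seeing the data. The differences from INSIDE were -0.28 and -0.26 (brightness), -0.52 and -0.40 (normexp), -0.53 on array 1 (well above background), -0.76 and -0.70 (no RefSeq start of another gene) and -0.13 and -0.18 (without olfactory receptor genes). Shares at 1 or more were 4.90% on array 2 (brightness), 7.41% on array 1 (normexp), 3.04% and 2.98% (centred on INSIDE), 3.68% and 3.41% (no RefSeq start), 3.66% and 3.26% (no other start), and 6.41% and 5.87% (without olfactory receptor genes). Shares at -1 or less were 14.3% and 13.1% (brightness), 0.0621% and 8.84% (normexp), 27.9% and 27.6% (well above background), 38.1% and 37.2% (centred on INSIDE), 39.6% and 38.2% (no RefSeq start), 35.7% and 34.1% (no other start), and 20.8% and 19.2% (without olfactory receptor genes). At a threshold of 0.5 the shares were 13.6% and 13.3% high and 50.8% and 50.2% low, and at 2 they were 0.352% and 0.346% high and 8.88% and 7.94% low. All probes had 7.01% and 6.75% at -1 or less and 8.17% and 7.60% at 1 or more with the brightness trend removed, and 0.0148% and 3.47% at -1 or less and 16.2% and 7.93% at 1 or more with normexp. The causes of these shifts were not tested. Of 81 named genes, the median moved by more than the SD of its probes without a change of sign in 24 with normexp and 15 with the brightness trend removed. It changed sign in 8 with normexp: Olfr398 (-0.14), Vmn1r47 (-0.12), Krtap12-1 (0.067), Cox8c (-0.030), Defb29 (-0.44), Ifna1 (-0.086), Jund (0.14) and Sox18 (-0.11). It changed sign in 9 with the brightness trend removed: Tas2r135 (-0.035), Ifnb1 (-0.024), Ier5 (-0.044), Sox3 (0.23), Sox18 (-0.20), Hbb-bh1 (-0.021), Hbq1a (-0.23), Gp9 (0.70) and Zfp449 (0.23). No paired analysis was possible because each probe was measured on 1 array.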

Other observations

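DOWNSTREAM medians differed between chromosomes with their share of olfactory receptor probes. Chromosome 9, where 69.0% of 855 probes belonged to olfactory receptors, had the lowest median, -1.01, and its other genes had -0.20. Chromosome 2 had -0.76 with 55.2% olfactory probes and 0.04 for its other genes. On chromosome 6 (666 probes, 23.4% olfactory) and chromosome 16 (355 probes, 43.1%) the other genes were low too, at -0.62 and -0.62. Chromosome 8, with 2.47% olfactory probes among 283, had -0.02.

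Genes of secreted defence proteins had few DOWNSTREAM probes. Type I interferon genes (8 genes, 45 probes) had a DOWNSTREAM median of -0.50, from Ifna15 (-1.43, 9 probes) and Ifna14 (-1.19, 4 probes) to Ifna1 (0.08, 5 probes) and Ifnb1 (0.28, 9 probes). INSIDE probes of all genes of the list, with or without DOWNSTREAM probes, had 0.30. Defensins, antimicrobial peptides of epithelia, had -0.42 over 24 probes in 9 genes, with Defb42 at -1.14, Defb25 at -0.26 and Defb29 at 0.04. Chemokines had -0.01 over 43 probes in 11 genes, 0.15 on array 1 and -0.14 on array 2, with Cxcl1 (-1.20) and Cxcl2 (-0.93) lowest and Ccl12 (0.41) and Ccl17 (0.54) highest. With the brightness trend removed the list medians were -0.09 for interferons, -0.14 for defensins and 0.13 for chemokines. The signs of Ifna1 and Defb29 turned with normexp, and that of Ifnb1 with the brightness trend removed. Each gene's value rests on 3 to 9 probes of 1 array.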
